A study of Mus musculus and Rattus norvegicus with 2 samples.

Results

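Fragments of messenger RNAs that encode the proteins of the cytosolic ribosome were followed in a small RNA library of mouse caput epididymal sperm. The members were the sense sequences that the deposited table lists under a GenBank record labelled mRNA and whose record or sequence belongs to a ribosomal protein gene, with pseudogenes and the Rps6k kinases left out. They numbered 525 distinct sequences with 1323 reads, out of 648517 sense sequences with 1895073 reads under mRNA-labelled records, and out of 1565393 listed sequences in the mouse and rat libraries, where a sequence listed in both counts once for each. That was 0.0698% (0.0661 to 0.0737) of the mRNA-labelled sense reads. Pseudogenes were left out as genes only: reads that match a pseudogene or copy equally well, 83.1% of member reads, stayed in. The study sequenced RNA of 18 to 45 nt from purified spermatozoa of the caput, the head of the epididymis, in 2 libraries. The mouse library came from C57BL/6 animals of 2 months and the rat library from young adult Sprague Dawley animals of 450 g. Neither group carried a treatment or a modified allele according to the labels, which do not say how many animals gave sperm. With 1 library per species there is no replicate error, and the 95% intervals in parentheses are exact Clopper-Pearson intervals that cover counting error only, since PCR reads without molecular identifiers are not independent molecules.

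A cytosolic ribosome is built from a large and a small subunit, each a scaffold of ribosomal RNA (rRNA) carrying many proteins, named Rpl for the large and Rps for the small subunit. Their mRNAs are short, are among the most abundant messages of growing cells and begin with a terminal oligopyrimidine tract that couples their translation to growth signals. Mammalian genomes hold large numbers of processed pseudogenes copied from these mRNAs. Mature sperm translate little or nothing from cytosolic ribosomes, and the RNA of caput sperm is known to include material acquired from the epididymis.

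The rule reached only a small portion of the ribosomal protein fragments in the table, because the table labels most records of these genes as rRNA. Of 102 RefSeq records of ribosomal protein genes with a read, 101 carried the label rRNA and 1, a record of the copy Rpl32l, carried the label mRNA. All 10 records of Rps6k kinases were also labelled rRNA, and 76 of 78 records of mitochondrial ribosomal proteins (Mrpl and Mrps) were labelled mitoRNA. Among 20829 RefSeq records of other genes, 29, or 0.139%, were labelled rRNA. How the label was set is not given in the sources used here. Under rRNA-labelled records, 14664 sequences with 42522 reads matched the sense strand of a ribosomal protein mRNA, which was 6.77% (6.71 to 6.84) of the 627696 sense reads with that label. The mRNA-labelled members were thus 3.02% (2.86 to 3.18) of all ribosomal protein reads under both labels. The values below are given for the mRNA-labelled members first and then for both labels, a scope added after the labels had been seen.

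The sequences on which the results turn were sets of nested reads that began at different bases and ended at the same base. The most abundant sets came from Rps3a1 and Rpl22 and were listed under rRNA-labelled records, and the most abundant mRNA-labelled set came from Rpl37. Each read is written 5′ to 3′, and the capitals mark its last 8 bases, which the reads of a gene share.
Rps3a1, 659 reads: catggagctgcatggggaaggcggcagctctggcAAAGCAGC
Rps3a1, 518 reads: aaggcggcagctctggcAAAGCAGC
Rps3a1, 241 reads: aggcggcagctctggcAAAGCAGC
Rpl22, 231 reads: ctggactgcactcaccctGTAGAAGA
Rpl22, 214 reads: tggactgcactcaccctGTAGAAGA
Rpl22, 174 reads: caccctggactgcactcaccctGTAGAAGA
Rpl37, 74 reads: taaagattgtctaccgcagaTTCAGACA
Rpl37, 23 reads: cctaaagattgtctaccgcagaTTCAGACA
The longest of the Rps3a1 reads shown lies at chr3:86138059-86138100 on the minus strand of GRCm38, in exon 6 and in the coding sequence. The longest of the Rpl22 reads shown lies at chr4:152327531-152327560 on the plus strand, in the coding part of exon 2. The Rpl37 read of 74 counts spans the junction of exons 3 and 4, between positions 5117679 and 5118569 of chromosome 15, also in the coding sequence.

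Under mRNA-labelled records, few ribosomal protein genes had reads, and the counts were concentrated in large-subunit genes. Of 84 genes in the reference, 29 had a read, 18 had at least 10 reads and 3 had at least 100, while 49.4% of 20229 other protein-coding genes had at least 10 reads. Reads were counted per gene when they matched 1 ribosomal protein gene and no other protein-coding gene equally well, which left 1163 reads, and the 5 highest genes held 63.2% of them. The 52 large-subunit genes held 1012 of these reads and the 32 small-subunit genes held 151. Over genes with a read the median level was 19.8 reads per kb of transcript for the large and 3.48 for the small subunit, a log2 ratio of 2.51. That ratio rested on 7 small-subunit genes with a read and was 0.010 when both labels were counted, with medians of 357 and 355 reads per kb. Within the mRNA label it was 0.55 without the most abundant sequence of each gene and 0.16 with only reads that match no copy.

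Rpl37, a zinc-binding protein of the large subunit, led the mRNA-labelled reads with 342 reads in 93 sequences, or 410 reads per kb. Of these, 267 were listed under records of Rpl37rt, an intronless copy whose sequence nearly matches Rpl37, so the gene of origin is uncertain. Rpl17 and Rpl10a, further large-subunit proteins, had 117 and 113 reads, or 151 and 155 reads per kb. Rpl35a had 87 reads in only 7 sequences, and Rpl22, an RNA-binding protein of the large subunit, had 71 reads in 24 sequences. Rpl12, at the base of the ribosomal stalk, had 58 reads, Rpl34 had 41 and Rpl13a had 33. Rpl32 had 23 reads, or 44.5 reads per kb, and all of them were listed under the record of the copy Rpl32l. Among the 10 genes with the most reads per kb, Rpl37, Rpl32 and, in the small subunit, Rps27 rested mainly on copy records.

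Rpsa, a small-subunit protein also known as the laminin receptor, had 76 reads in 27 sequences, the most of any small-subunit gene under this label. Rps27 had 45 reads, 39 of them under a record of the copy Rps27rt, and Rps15a had 18. The lowest levels among genes with a read were 1.04 reads per kb for Rpl15, 1.13 for Rps10, 1.36 for Rpl9, 1.53 for Rpl7l1 and 1.93 for Rps24, each from 1 to 4 reads.

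No mRNA-labelled read was counted for 55 genes, which at a count of 0 allows up to 3 reads each. In the large subunit these included Rpl3, Rpl4, Rpl5, Rpl6, Rpl7, Rpl7a, Rpl8, Rpl11, Rpl13, Rpl14, Rpl18, Rpl19, Rpl23, Rpl23a, Rpl24, Rpl26, Rpl27, Rpl27a, Rpl29, Rpl30, Rpl36a, Rpl37a, Rpl38, Rpl39, Rplp1 and Rplp2, with the paralogs Rpl3l, Rpl10l, Rpl22l1 and Rpl39l. In the small subunit they included Rps2, Rps3a1, Rps4x, Rps6, Rps7, Rps9, Rps12, Rps13, Rps14, Rps15, Rps18, Rps19, Rps20, Rps21, Rps23, Rps25, Rps26, Rps27a, Rps28 and Rps29, with the paralog Rps27l. This absence belonged to the label and not to the library: all but Rpl10l and Rpl39l had at least 10 reads under rRNA-labelled records. No gene had more mRNA-labelled than rRNA-labelled reads.

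With both labels counted, 82 of 84 ribosomal protein genes had at least 10 reads, against 49.8% of other protein-coding genes. The median over genes with at least 10 reads was 357 reads per kb, against 17.2 for other genes, and 81 of the 84 lay above the latter value. With reads that match a pseudogene or copy left out, 68 genes had at least 10 reads and their median was 70.8 reads per kb. Because some transcripts carry long untranslated regions, coding reads per kb of coding sequence were computed too. Their medians were 514 for the large and 489 for the small subunit, against 18.4 for other protein-coding genes. Reads covered a median of 72.1% of the bases of a transcript over the genes with a read.

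**Figure D1:**
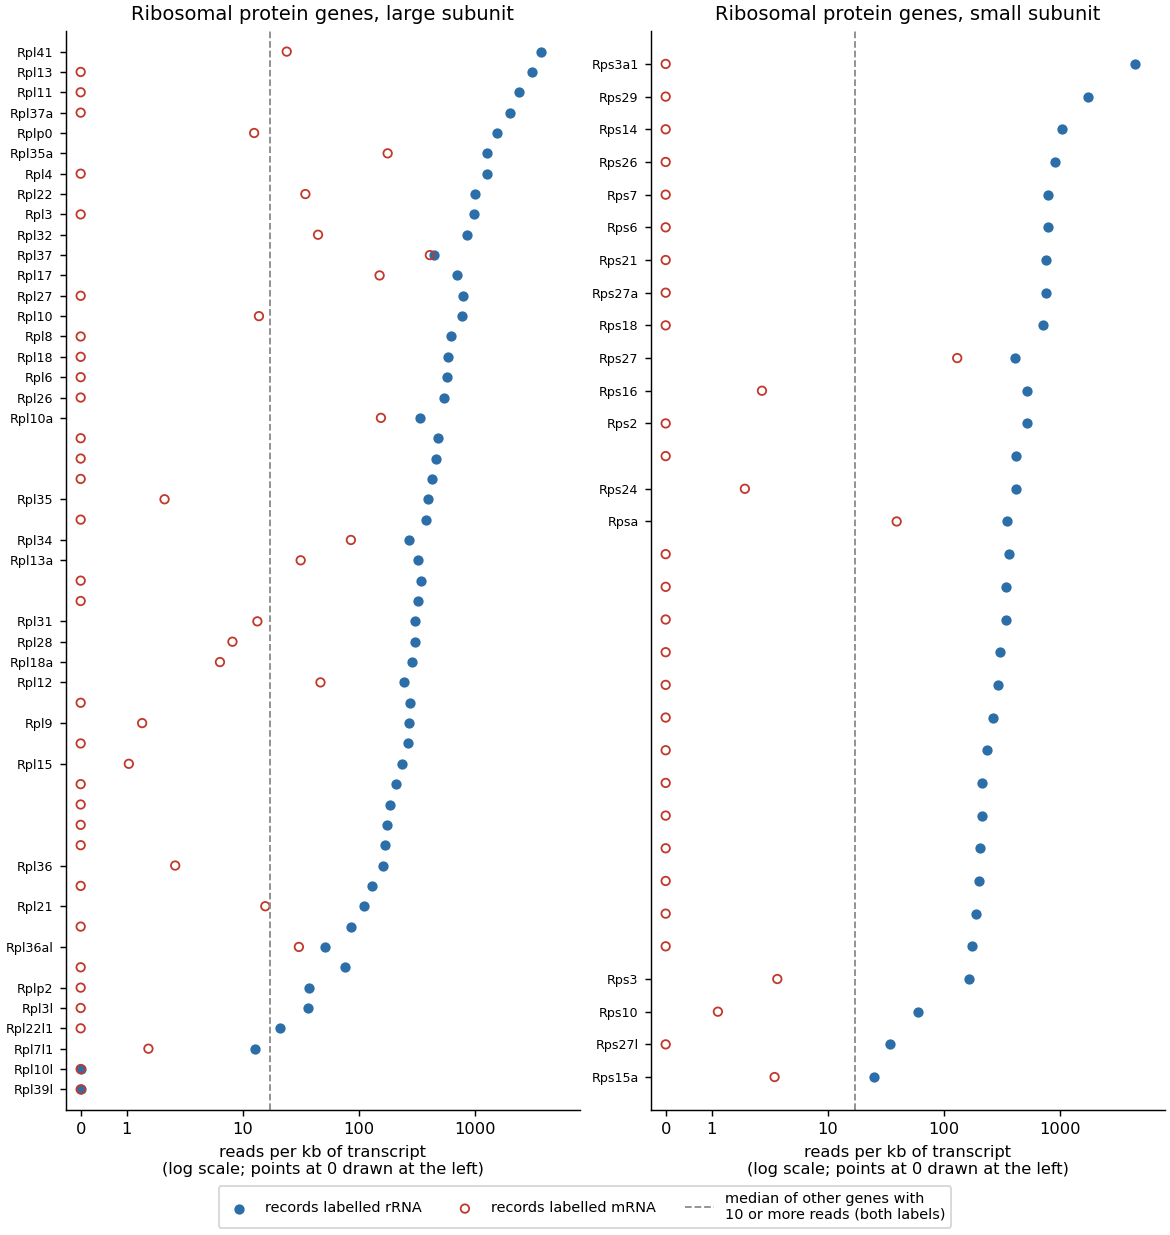
Reads per kb of transcript (log axis, values of 0 drawn at the left) of the 84 ribosomal protein genes, ordered by level with both labels, in the mouse library. Filled points are reads under rRNA-labelled records and open points reads under mRNA-labelled records; the dashed line is the median of other protein-coding genes with at least 10 reads, 17.2, and 55 open points lie at 0. Names are given for genes with an mRNA-labelled read and for the highest and lowest levels.

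Rps3a1, a small-subunit protein, had the most reads of all, 4307, or 4408 per kb, and none of them under an mRNA-labelled record. Rpl13 followed with 2416 reads, then Rpl22 with 2126 and Rplp0, the scaffold of the ribosomal stalk, with 2109. Rpl41, which encodes one of the shortest proteins of the cell, had 2050 reads, and 1981 of them lay in its 3′ untranslated region. Rpl11 and Rpl4 had 2003 and 1969 reads. The lowest of the main genes were Rps15a with 28.4 reads per kb, Rplp2 with 37.3 and Rps10 with 60.9. For Rps15a the transcript used is 5179 nt long, and its coding sequence alone had 328 reads per kb.

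The paralogs, expressed second copies of ribosomal protein genes, were low. Rpl3l, the paralog of Rpl3 known from muscle, had 50 reads, or 36.4 per kb, while Rpl3 had 1322 reads, or 979 per kb. Rpl36al had 43 reads, Rpl7l1 37, Rps27l 17 and Rpl22l1 11. Rpl10l and Rpl39l, the germ-line paralogs of Rpl10 and Rpl39, were at 0 reads under both labels, whereas Rpl10 had 630 reads and Rpl39 had 164. The 7 paralogs held 158 reads in all, with a median of 34.1 reads per kb over the 5 with a read. Reads that matched a paralog and its parent gene equally well were not counted for either.

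Most genes of translation outside the naming rule kept the label mRNA. Of 19 such genes, 18 had at least 10 mRNA-labelled reads, and the median coding level of the 19 with both labels was 272 reads per kb. Eef1a1, the elongation factor that brings tRNA to the ribosome, had 5401 reads, the ribosomal scaffold protein Rack1 3309 and the translocation factor Eef2 3188. Pabpc1, which binds poly(A) tails, had 1345, Tpt1 1058, the initiation factor subunit Eif3f 956 and the histone chaperone Nap1l1 773. The helicase Eif4a1 had 571, Eif4b 515, Fau, whose product includes the small-subunit protein eS30, 432, nucleolin (Ncl) 355, Eef1b2 318 and nucleophosmin (Npm1) 256. Lower counts were those of Eef1g with 160, Eef1d 132, Eif3h 112, Eif3e 100 and Hnrnpa1 81 reads. The 78 mitochondrial ribosomal protein genes were low under these 2 labels, with 127 reads in all, and most of their RefSeq records carry another label.

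Reads of markers of other cells were listed in the same library, at uneven levels within each list. The 13 markers of caput epithelium held 50711 reads, ranging from 133 to 14702 reads per kb, while the 12 markers of spermatids, whose mRNAs sperm inherit, held 618 reads, ranging from 0.70 to 204. The spermatid genes ran from Smcp with 176 reads, Odf2 with 114 and Prm2 with 85 down to Akap4 with 2 and Ldhc with 1. The 5 smooth muscle markers held 757 reads, the 4 endothelial markers 427, the 6 leukocyte markers 414 and the 4 erythroid markers 27. Over markers with a read, the median was 30.1 reads per kb for leukocyte, 13.8 for smooth muscle, 7.67 for erythroid and 3.81 for endothelial markers. Other protein-coding genes with a read had a median of 8.41. Single genes held most of these sums: Acta2 had 386 of the smooth muscle reads, Cdh5 379 of the endothelial reads and Lyz2 249 of the leukocyte reads. Alas2 had 26 of the erythroid reads, with Hba-a1 and Hbb-bt at 0. Of the Cdh5 reads, 92.1% ended at 1 base. Below the 8.41 of other genes lay the endothelial markers Pecam1 (3.66), Vwf (3.96) and Emcn (1.47). The leukocyte markers Ptprc (3.04) and Coro1a (4.22) and the smooth muscle markers Cnn1 (7.56) and Des (7.93) also lay below it. The remaining endothelial, leukocyte and smooth muscle markers lay above it. The part of these cells in the ribosomal protein reads was not tested, and in bulk RNA more cells of a type and more RNA per cell cannot be told apart.

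The mRNA-labelled members had more of the shortest reads than other mRNA-labelled fragments, while the rRNA-labelled ribosomal protein fragments had fewer. Their most common length was 28 nt and their median 31 nt, against 23 and 33 nt for other genes. Reads of 18 to 20 nt made up 11.2% (9.54 to 13.0) of the members, against 7.19% (7.15 to 7.22) in other genes, and reads of 21 to 23 nt made up 5.90% (4.69 to 7.30) against 11.2% (11.1 to 11.2). By distinct sequence the class of 18 to 20 nt held 11.2% (8.67 to 14.3) against 7.37%, but that of 21 to 23 nt held 6.67% (4.69 to 9.15) against 6.94%, and the most common length was 18 nt for the members and 34 nt for other genes. The class of 26 to 36 nt held 40.1% (37.5 to 42.8) of member reads and 37.0% (37.0 to 37.1) of other reads. Counted by distinct sequence, that class held 31.6% (27.7 to 35.8) of the members, against 33.0% (32.9 to 33.1), so the lead of the members by reads was not seen by sequence. The rRNA-labelled fragments had a common length of 42 nt, to which the Rps3a1 read above contributed, and a median of 35 nt. Reads of 18 to 20 nt were 3.55% (3.38 to 3.73) of these fragments, and 3.50% by distinct sequence, below the shares in other genes. Ribosomal protein reads were mostly called by a match with at most 2 mismatches, which short reads meet more easily, while other reads needed no match. Reads with 2 mismatches were 6.88% of member reads and 0.381% of rRNA-labelled reads. The part of this selection in the lengths was not tested. Reads longer than the selected 45 nt were 16.02% (14.1 to 18.1) of the members and 15.5% of other mRNA-labelled reads.

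**Figure D2:**
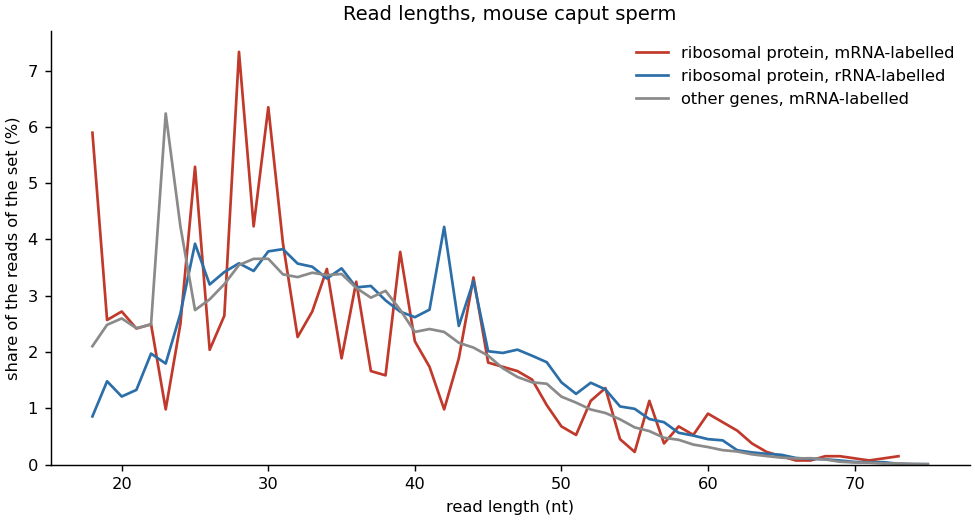
Share of reads (%) at each length (nt) for ribosomal protein fragments under mRNA-labelled records, the same under rRNA-labelled records and all other mRNA-labelled sense reads. The members peak at 28 nt, the rRNA-labelled fragments at 42 nt and other genes at 23 nt.

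Ribosomal protein fragments lay in the coding sequence more often than fragments of other genes. Of 1135 member reads placed on a representative transcript, 86.2% (84.0 to 88.1) had their midpoint in the coding sequence, which made up 38.8% of the length of those transcripts. The length shares are sums over the 27 transcripts used, not weighted by reads, so they depend on the transcript chosen. That of Rps15a, a gene with 18 member reads, has a 3′ untranslated region of 4728 nt. The 3′ untranslated region held 3.88% (2.83 to 5.17) of the reads and 51.2% of the length, and the 5′ untranslated region held 9.96% (8.28 to 11.8) of the reads and 9.998% of the length. Rpl35a supplied much of the latter: its most abundant sequence, 47 reads of 25 nt, ran from transcript position 71 to 95 and so crossed into the coding sequence, which begins after a 5′ untranslated region of 90 nt. Of the members that match no copy, 157 placed reads with Rpl35a the largest source, only 26.8% (20.01 to 34.4) were coding. Under rRNA-labelled records the coding share was 89.5% (89.2 to 89.7) with 52.8% of the length, while other mRNA-labelled genes had 67.9% (67.9 to 68.0) with 53.7%. Among rRNA-labelled fragments that match no copy, 75.3% (74.5 to 76.2) of 10008 placed reads were coding. Reads that began within the first 5 nt of the transcript, where the oligopyrimidine tract lies, were 16 of 1135 members (1.41%, 0.808 to 2.28) and 0.259% (0.212 to 0.313) of rRNA-labelled fragments. In other mRNA-labelled genes they were 0.199%. These bases made up 0.398%, 0.509% and 0.146% of the transcript length of the 3 sets. The 16 member reads came from only 4 sequences.

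**Figure D3:**
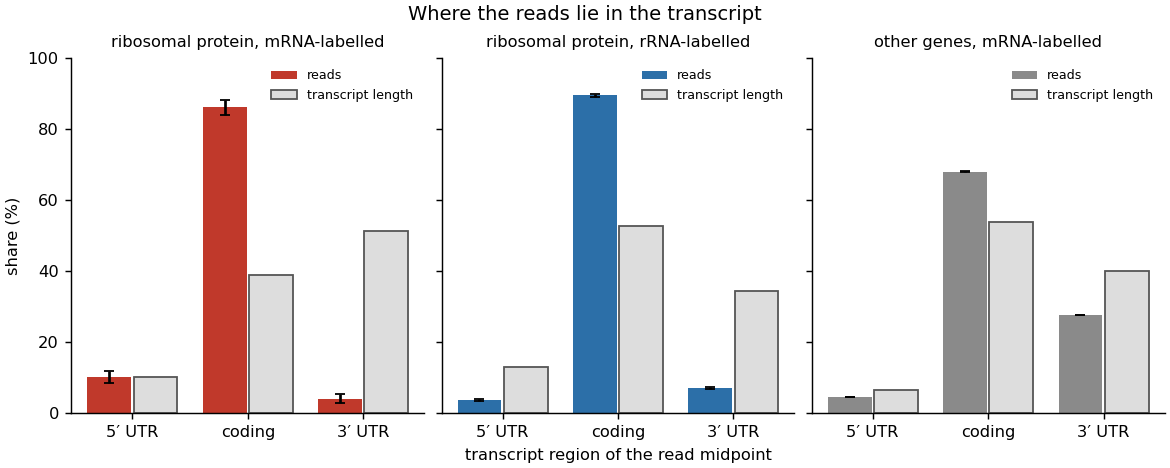
Share (%) of reads by the transcript region that holds the read midpoint (coloured bars, with exact 95% intervals) beside the share of transcript length (grey bars) for 3 sets of reads. In both ribosomal protein sets over 86% of reads are coding, against 67.9% for other mRNA-labelled genes.

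By reads, the fragments' last bases were spread less evenly over the codon bases than their first bases. By distinct sequence this was not so for the members. The first base of member reads fell on codon base 1 in 37.9% (34.9 to 41.1) of coding reads, on base 2 in 33.7% and on base 3 in 28.3%, and for rRNA-labelled fragments these shares were 33.9%, 31.9% and 34.3%. Their last base fell on codon bases 1, 2 and 3 in 27.5%, 39.6% (36.5 to 42.7) and 32.9% of member reads and in 34.7%, 40.2% (39.7 to 40.7) and 25.2% of rRNA-labelled fragments. In other mRNA-labelled genes the last base fell on codon base 1 most often, in 39.8%. By distinct sequence, first bases of members fell on codon bases 1, 2 and 3 in 37.6%, 31.2% and 31.2%, and last bases in 31.2%, 31.4% and 37.4%. For rRNA-labelled fragments the last-base shares were then 37.0%, 29.9% and 33.1%, so the most frequent codon base changed in both sets. For other mRNA-labelled genes it remained codon base 1, at 37.6%. Cytosine was the most frequent first base of member reads, at 37.2% (34.4 to 40.1) against 23.7% of transcript bases, and the most frequent last base, at 40.8% (37.9 to 43.7). It was also the most frequent last base of other mRNA-labelled reads, at 35.8% against 24.5% of transcript bases. Their first base was most often A, at 32.2%, with cytosine at 28.6%. The base that followed the 3′ end on the transcript was T in 51.0% (48.1 to 54.0) of member reads, against 25.1% of transcript bases, and in 51.9% of other mRNA-labelled reads.

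Reads also crossed exon junctions, as fragments of spliced mRNA or of its processed copies would. Of the placed member reads, 404 of 1135, or 35.6% (32.8 to 38.5), crossed a junction, while 17.4% of all placements of the same read lengths on the same transcripts do. For rRNA-labelled fragments the share was 18.0% (17.7 to 18.4), with 19.5% of placements, and for other mRNA-labelled genes 5.53% (5.49 to 5.56), with 12.7% of placements. Among member reads across a junction 98.3% (96.5 to 99.3) matched an annotated pseudogene or copy equally well, against 79.5% (76.4 to 82.4) of those within an exon. Among rRNA-labelled reads the shares were 72.3% (71.2 to 73.3) and 76.5% (76.1 to 77.0). Of all 30-nt windows of the transcripts, 71.4% of those across a junction and 41.6% of those within an exon occur in such a copy. The letters therefore do not separate the genes from their pseudogenes for most reads: 83.1% (80.9 to 85.1) of all member reads and 75.8% of rRNA-labelled reads matched a copy equally well. When the reads that match a copy were left out, 10346 reads remained under both labels, and Rplp0 led with 1541. Under the mRNA label alone 2 genes then had at least 10 reads.

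In the nested sets a single 3′ end held a large share of the reads of a gene. Of 4307 placed Rps3a1 reads, 3763 (87.4%) ended at 1 base, and they began at 47 different bases. For Rpl22, 1869 of 2083 reads (89.7%) ended at 1 base with 37 starts, for Rpl13, 1031 of 2415 (42.7%) with 30 starts, and for Rpl11, 744 of 2003 (37.1%) with 26 starts. By contrast the most used start of Rps3a1 held 15.4% of its reads and that of Rpl22 held 11.5%. The starts were spread upstream of a single sharp end.

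**Figure D4:**
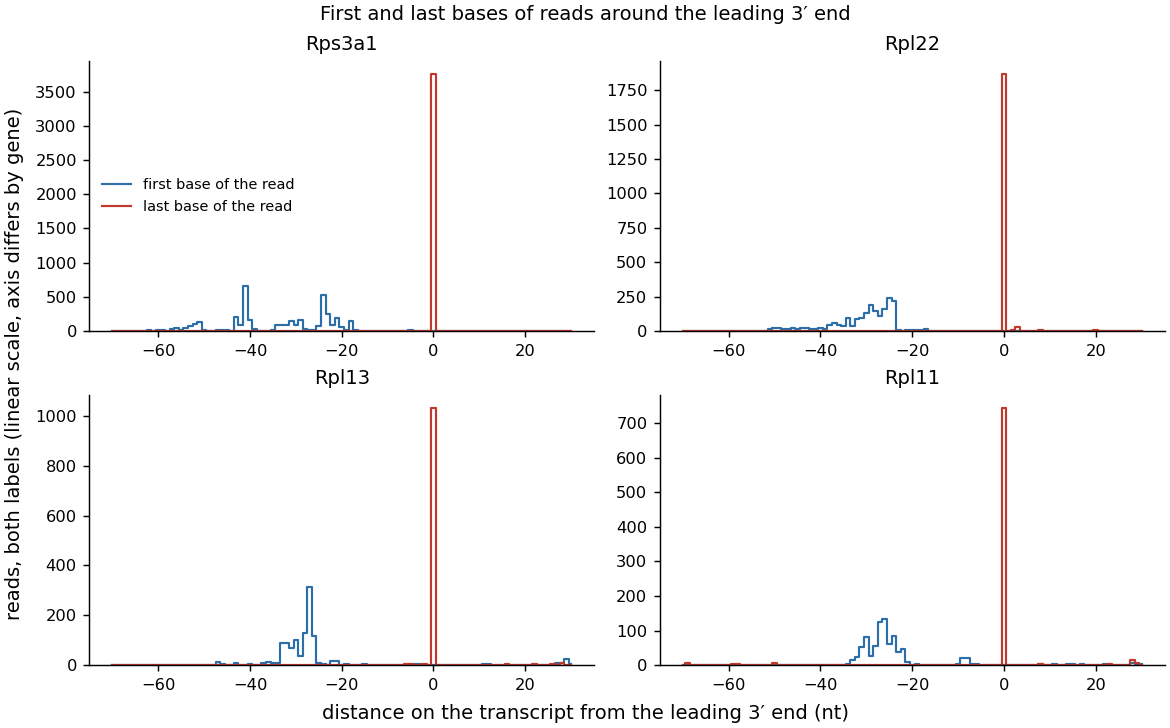
Number of reads (linear axis, scaled for each gene) whose first base or last base lies at each distance (nt) from the most used 3′ end, for the 4 ribosomal protein genes with the most reads at that end, both labels. Last bases form 1 peak at distance 0, with 3763 reads in Rps3a1, 1869 in Rpl22, 1031 in Rpl13 and 744 in Rpl11, while first bases are spread upstream.

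Among mRNA-labelled members alone, 7 genes had at least 50 placed reads, and in each of them the leading 3′ end held a larger share of reads than the leading 5′ end, as it did in 80.5% of 4785 other genes under this label. The leading 3′ end held 94.3% of 87 reads in Rpl35a, 73.3% of 60 in Rpl22, 46.1% of 76 in Rpsa and 36.8% of 342 in Rpl37. It held 19.7% in Rpl17, 19.0% in Rpl12 and 15.04% in Rpl10a. The leading ends of Rpl22, Rpl35a, Rpl37 and Rpsa were the same ones that led with both labels.

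With both labels, 75 ribosomal protein genes had at least 50 placed reads, and 53 of them (70.7%) had a larger leading 3′ than 5′ end, against 80.0% of 4825 other protein-coding genes. The leading 3′ end held at least 50% of reads in 9 of the 75 (12%), against 15.9% of other genes, so such ends were not particular to ribosomal protein genes. The 9 were Rpl22, Rps3a1, Rpl35a (75.9%), Rps20 (75.4%), Rps27a (74.2%), which encodes ubiquitin fused to a ribosomal protein, Rps16 (61.8%), Rpsa (59.9%), Rpl15 (56.3%) and Rps29 (50.7%).

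**Figure D5:**
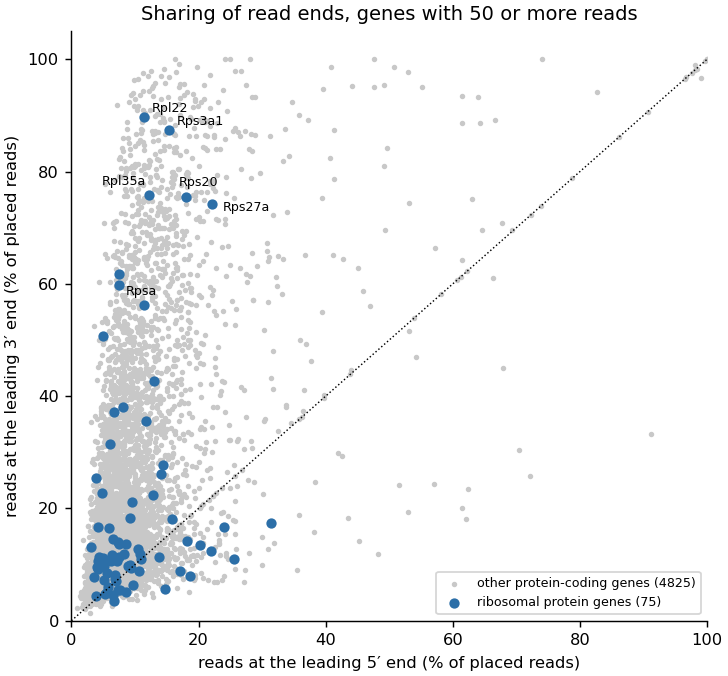
Share of placed reads (%) at the most used 3′ end against the share at the most used 5′ end, 1 point per gene with at least 50 placed reads, both labels; the dotted line marks equal shares. Of the 75 ribosomal protein genes, 53 lie above the line, and 9 have at least 50% of reads at 1 3′ end.

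The shared ends had similar letters after them on the transcript. Windows of 24 nt around the leading end are given below in transcript sense, with the reads ending just before the capitals, which mark the 4 bases that follow.
Rps3a1: gctctggcaaagcagcTGGAgacg
Rpl22: ctcaccctgtagaagaTGGAatca
Rps27a: ctgatgaatgtggtgcTGGAgttt
Rps16: gagcgatttgctggtgTGGAtatt
Rpl15: gataaagctcgaagacTGGGatac
Rps20: gaaaagaatctgaaagTGAAagga
Rpsa: aaggctgtgaccaaggAGGAattc
The windows of Rps3a1 and Rpl22 lie at chr3:86138051-86138074 on the minus and chr4:152327545-152327568 on the plus strand of GRCm38. Those of Rps27a and Rps16 lie at chr11:29545960-29545983 on the minus strand and chr7:28352207-28352230 on the plus strand. Those of Rpl15 and Rps20 lie on the minus strand at chr14:18270292-18270315 and chr4:3834957-3834980, and that of Rpsa on the plus strand at chr9:120131030-120131053. The leading end was followed by TGGA in 6 of the 9 genes with at least 50% of reads at it, and by TGG in 7, while among 769 other genes with such an end it was followed by TGGA in 564 and by TGG in 673.

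Over all placed reads, 34.5% (31.7 to 37.3) of the mRNA-labelled members were followed by TGGA, which follows 0.588% of positions in their transcripts. The share was 26.7% (26.2 to 27.1) for rRNA-labelled fragments, with 0.577% of positions, and 28.1% (28.1 to 28.2) for other mRNA-labelled genes, with 0.698%. By distinct sequence the shares were lower, at 13.1% for the members, 6.42% for rRNA-labelled fragments and 14.8% for other mRNA-labelled genes, so the members lay above other genes by reads and below them by sequence. The leading 3′ end was followed by TGGA in 19 of the 75 ribosomal protein genes (25.3%), against 47.4% of other genes, and by TGG in 21 (28.0%), against 58.6%. These letters also begin the 3′ adapter of Illumina small RNA kits; the sources used here do not name the adapter or its trimming, and its part in the shared ends was not tested.

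Few of the member sequences were also listed, letter for letter, in the rat library. They were 10 of 525, or 1.90% (0.917 to 3.47), with 17 rat reads in all, against 1.28% of other mRNA-labelled mouse sequences. Among members with at least 5 mouse reads, 3 of 47 were shared (6.38%, 1.34 to 17.5), against 7.71% (7.48 to 7.96) of other sequences. Neither share differed from that of other sequences beyond its counting interval. The shared sequences came from Rpl34, Rpl36al, Rpl37 and Rps27, and 2 of them, both from coding sequence, are given here as the bases that both species listed.
Rpl34, 7 mouse reads and 3 rat reads: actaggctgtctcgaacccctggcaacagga
Rpl37, 5 mouse reads and 1 rat read: agcgcaagaggaagtataac
The Rpl34 sequence spans the junction of exons 2 and 3 on the minus strand of chromosome 3, and the Rpl37 sequence spans the junction of exons 2 and 3 on chromosome 15. All 5 shared Rps27 sequences lay at the start of the transcript, beginning at transcript position 5 or 6. Of the rRNA-labelled fragments 131 of 14664 were shared, or 0.893% (0.747 to 1.06).

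Reads listed on the minus strand of their record were 19.0% (17.1 to 20.97) of ribosomal protein reads under mRNA-labelled records, 310 of 1633. Under rRNA-labelled records they were 0.969% (0.878 to 1.07), and among all other mRNA-labelled reads 10.1% (10.04 to 10.1). Ribosomal protein reads were called by their record or by printed letters that match the mRNA in sense. The other reads needed no match, so the shares are unlike measures and do not count reads antisense to ribosomal protein mRNAs. A further 7741 rRNA-labelled reads in 460 sequences matched only transcripts of ribosomal protein genes that are not annotated as mRNA, such as those that keep an intron, and were not counted above. Rpl13, whose introns hold small nucleolar RNA genes, accounted for 6281 of them and Rps3 for 1190. Under mRNA-labelled records such reads numbered 103.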

How the data were processed

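The authors' deposited tables hold whole-number read counts per distinct sequence, each with a single matched record and its label, per the file headers. RNA was extracted with Trizol and size-selected, per the labels' protocols. Bowtie 0.12.7 and the builds mm9 and rn5 are named in the submitters' processing notes. The sources used here do not say how adapters were trimmed. The deposited counts summed to 11760708 reads in mouse and 14652889 in rat.

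Reads under mRNA- or rRNA-labelled records were aligned with bwa 0.7.19 to GENCODE vM21 transcripts (GRCm38) with at most 2 mismatches and no gaps, keeping the best sense matches. Of 2000 simulated fragments of ribosomal protein mRNAs 98.7% were called a member, as were 0.05% of 20000 simulated fragments of other genes. The second rate is near the share of the members, 0.0698% of mRNA-labelled sense reads. Some members may thus be fragments of other genes, and how many was not tested. Of the 1323 member reads, 98.0% belonged to a gene by sequence alone and 89.4% had 0 mismatches. Another protein-coding gene matched equally well for 11.8%, which stayed in the total and out of counts per gene. Regions, ends and levels per kb used 1 principal transcript per gene, on which 85.8% of member reads were placed. Coordinates are those of GRCm38, which differs from the submitters' builds.

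The named genes are the 10 with the most reads, the 10 with the most and the 5 with the fewest reads per kb, all with no read, all paralogs and translation genes in the lists, and the genes of the 10 most abundant sequences. Rps4l was not analysed here, and some genes under this rule are not reported here. The leading genes with both labels were named after their values were seen. The members and lists were chosen with earlier results of these data known. No test was made, since each species has 1 library. Intervals are exact Clopper-Pearson intervals at 95%, computed with scipy 1.17.1, and a count of 0 was taken to allow 3. Alternatives were exact matches only, reads that match 1 ribosomal protein gene and no copy, other read minimums, lengths within the selected range, distinct sequences in place of reads, leaving out the top sequence of each gene, and leaving out words shared with rRNA or small nucleolar RNA entries. For the last, only Rfam entries and GenBank small nucleolar RNA records were used. Counting both labels and leaving out reads followed by TGG were added after seeing the data.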

Additional observations from a re-analysis of the deposited data

Results flagged for a closer look

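Sense reads of ribosomal protein mRNAs under records labelled rRNA, which lie outside the rows chosen by the rule, numbered 42522. There is no control library for them. They gave 82 of the 84 genes at least 10 reads each, and 97.9% (97.7 to 98.0) of them had 0 mismatches.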

How the results depend on the processing

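No paired analysis was possible because each species has 1 library. The 7 summary values of the members were recomputed under the alternatives; 31 of the resulting values moved by less than 1.5-fold or stayed within the counting interval, and 27 moved, none with a change of sign. The cause of these moves was not tested beyond the construction of each alternative. Keeping only reads that match 1 ribosomal protein gene and no copy left 2 genes with at least 10 reads, a share of 0.00976% of mRNA-labelled reads, a median of 2.64 reads per kb, a coding share of 26.8%, a log2 ratio between subunits of 0.16 and 0.0% of sequences listed in rat. Leaving out the most abundant sequence of each gene gave a share of 0.0600%, a median of 26.2 reads per kb, a coding share of 89.7% and a log2 ratio of 0.55. Counting each distinct sequence once gave 0.0810%, 8.58 per kb, 31.6% of 26 to 36 nt and 90.4% coding. Exact matches alone gave a share of 0.0624%. Sequences of 18 to 45 nt alone gave 47.8% of 26 to 36 nt and 83.4% coding. A minimum of 1 read gave 29 genes and a minimum of 100 gave 3. With both labels, chosen after seeing the data, the values were 82 genes, 1.74% of the sense reads under both labels, 357 reads per kb, 89.4% coding and a log2 ratio of 0.010. Without reads followed by TGG, also chosen after seeing the data, they were 0.0633%, 36.6% of 26 to 36 nt and 89.8% coding. At 1323 reads the members allow shares over all genes with counting intervals, but some of these shares moved under the alternatives above. Most single genes rest on fewer than 50 reads.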
